A study of Mus musculus with 4 samples.

Results

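Retinas of Norrin knockout mice whose β-catenin had been stabilized were set against retinas of WT mice, to describe which genes stood at the WT level, beyond it, or still apart from it. The comparison rests on 1 pooled library of each genotype and on the 12470 genes, of 23278 in the table, that met 4 conditions. These were a deposited status of OK in all 4 libraries of the study, a mean over them of at least 1 FPKM (fragment counts per transcript length and per size of the library), a symbol outside the Mir, Snor, Scarna and Rnu families, and a locus outside chromosomes X and Y. At the edge of the filter, Slco2b1 entered with a mean of 1.00 FPKM and 6230427J02Rik stayed out with 0.999 FPKM. The stabilized knockout, labelled NdpKO rescue, had the genotype NdpKO;Ctnnb1flex3/+;Pdgfb-CreER. The knockout was NdpKO alone, the retinas called stabilized here were Ctnnb1flex3/+;Pdgfb-CreER, and the WT carried none of these alleles per its label. Ctnnb1flex3 is a conditional allele from which Cre removes an exon that carries the phosphorylation sites for degradation of β-catenin, and Pdgfb-CreER is a Cre that 4HT, the active form of tamoxifen, switches on in cells that use the Pdgfb promoter, mainly endothelial cells. Mice of all 4 genotypes received 20 µg of 4HT at postnatal day 3, and whole retinas of a mixed strain with at least C57BL6 and 129 ancestry were taken at postnatal day 10. Each library pooled RNA of 3 batches, and each batch came from 4 to 8 retinas of 2 to 4 mice. With 1 library per genotype there is no spread between replicates and no test. A difference is therefore given as values, as a log2 ratio of FPKM + 0.5, and by whether the intervals deposited with the FPKM overlap. No source used here gives the level of those intervals, and they do not measure the spread between animals.

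Norrin, the product of Ndp, is a ligand that Müller glia release in the retina. It binds the receptor Frizzled-4 on endothelial cells together with the co-receptor Lrp5 and the adaptor Tspan12, and β-catenin then accumulates and acts with TCF/LEF factors in the nucleus. In mice without Norrin, the deep vascular layers of the retina do not form and vessels lack parts of the blood-retina barrier, the tight junctions and transporters that close the vessel wall and keep fenestrations away. Stabilized β-catenin acts below ligand and receptor in this pathway.

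The 4 libraries were alike in scale. FPKM summed to 405525 to 427109 per library, the median log2 ratio of stabilized knockout over WT was 0.01 with quartiles at -0.11 and 0.14, and an interval reached a median of 17.3% above its FPKM in the stabilized knockout and 17.3% in WT. No source used here gives read totals, so depth is unknown. Ndp itself, on chromosome X, was at 0.869 FPKM in the stabilized knockout and 0.873 FPKM in the knockout, against 2.35 FPKM in stabilized retinas and 2.98 FPKM in WT, so its level was set apart by Ndp genotype in both pairs. Xist, the RNA of the inactive X, was at 1.28 FPKM in the stabilized knockout and 1.25 FPKM in the knockout, against 130 FPKM in stabilized retinas and 135 FPKM in WT, and the Y gene Ddx3y ran the other way, at 20.1 FPKM in the stabilized knockout and 18.7 FPKM in the knockout, against 0.173 FPKM in stabilized retinas and 0.0896 FPKM in WT. Ndp genotype and sex therefore cannot be told apart in these libraries, while each Ndp genotype holds 1 library with stabilized β-catenin and 1 without. Genes of retinal neurons were present as labelled, with all 25 rod and all 20 bipolar genes of the lists past the filter, against 3 of 19 genes of lens, fibroblasts and the ocular surface. In RNA of whole retinas, fewer cells of a type and less RNA per cell cannot be told apart.

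Of the 12470 genes, 157 were at least 1.5-fold higher in the stabilized knockout than in WT (1.26%) and 58 at least 1.5-fold lower (0.465%). With non-overlapping intervals as well, 121 were higher (0.970%) and 26 lower (0.209%). At 2-fold, the counts were 49 higher and 13 lower. The knockout differed from WT at 1.5-fold, with intervals apart, in 56 genes, of which 30 were higher (0.241% of all) and 26 lower (0.209%) in the knockout. These 56 genes were sorted by where the stabilized knockout stood. A gene was called restored when the stabilized knockout was within 1.5-fold of WT and at least 1.5-fold from the knockout towards WT, which held for 14 genes. It overshot when the stabilized knockout was at least 1.5-fold from WT on the other side, which held for 7. A total of 22 stayed apart, at least 1.5-fold from WT on the side of the knockout, and 13 lay between, within 1.5-fold of both. Both ratios of each gene share the WT library, so an error in that library moves them together, and the classes are a description.

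**Figure D1:**
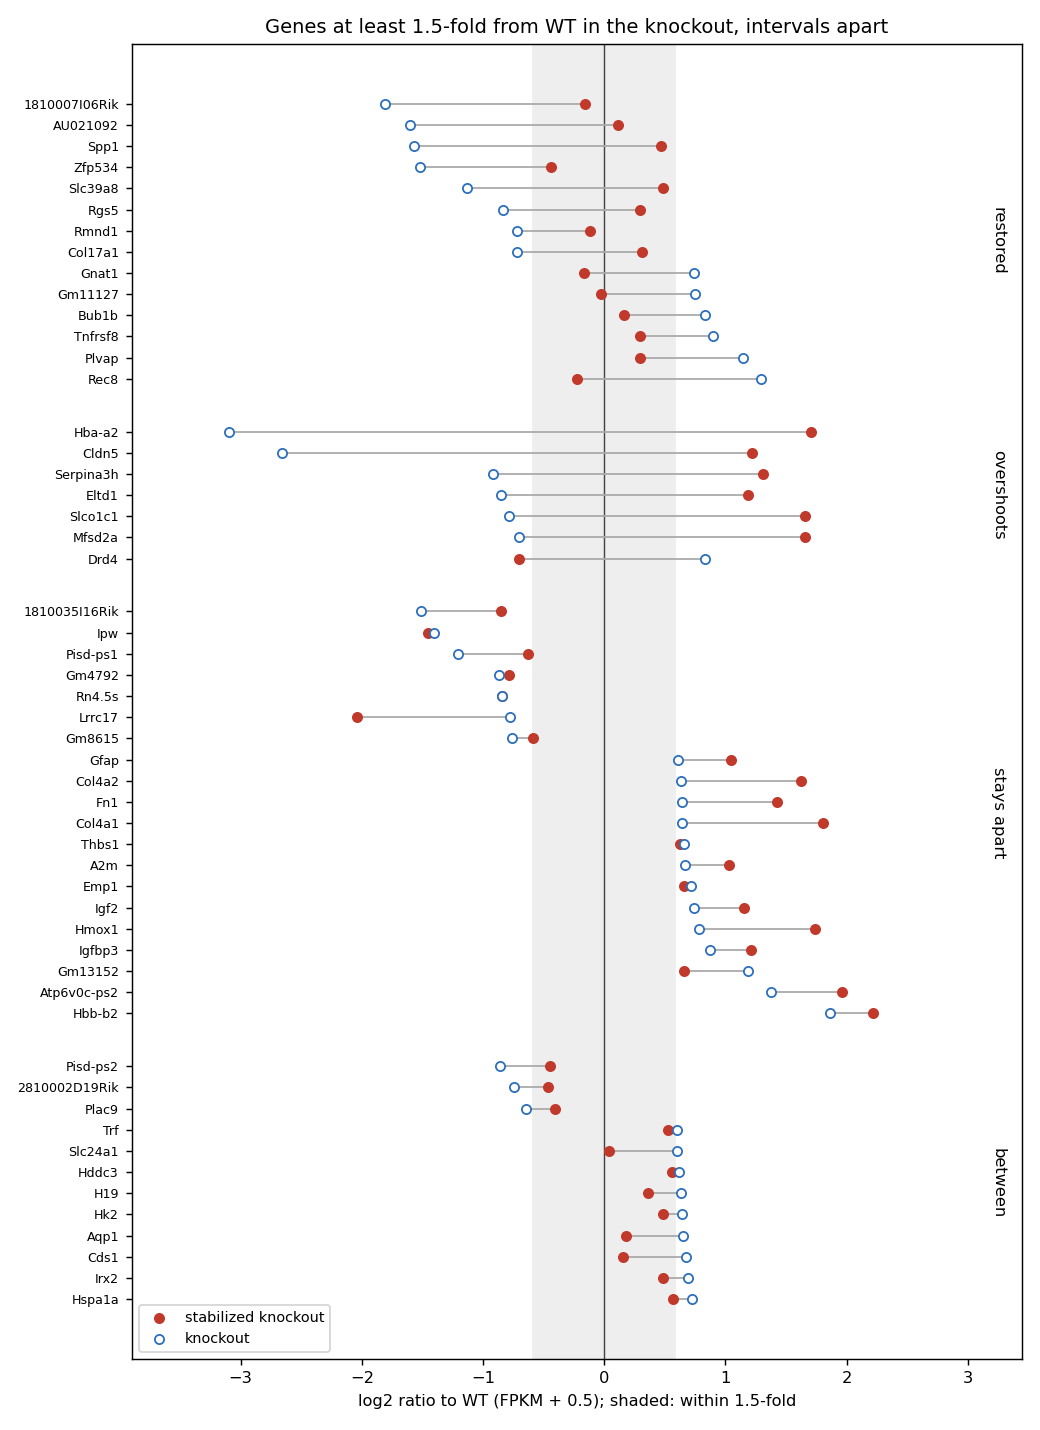
Log2 ratio to WT of 53 of the 56 genes that were at least 1.5-fold from WT in the knockout with intervals apart, 1 row per gene, for the stabilized knockout (filled) and the knockout (open), with the range within 1.5-fold of WT shaded. Both ratios use the same WT library. The 14 restored genes have their filled points in the shaded band, the 7 overshooting genes have theirs across the zero line from the open ones, and the 20 drawn of the 22 genes that stayed apart have both points outside the band on 1 side.

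The windows from 250 bases before to 50 bases after the RefSeq start (GRCm38.p6, the assembly of mm10) are shown for 4 genes that overshot, 3 upwards and 1 downwards, and for Col4a1, the gene that stayed apart with the highest ratio among those with no near-identical copy. They are Cldn5 (chr16:18776597-18776896, plus strand), Mfsd2a (chr4:122961139-122961438, minus strand), Slco1c1 (chr6:141524104-141524403, plus strand), Drd4 (chr7:141291768-141292067, plus strand) and Col4a1 (chr8:11312777-11313076, minus strand). Capitals mark CTTTGA, a core of TCF/LEF binding sites, which was searched on both strands together with the SOX motif ACAATG.
Cldn5: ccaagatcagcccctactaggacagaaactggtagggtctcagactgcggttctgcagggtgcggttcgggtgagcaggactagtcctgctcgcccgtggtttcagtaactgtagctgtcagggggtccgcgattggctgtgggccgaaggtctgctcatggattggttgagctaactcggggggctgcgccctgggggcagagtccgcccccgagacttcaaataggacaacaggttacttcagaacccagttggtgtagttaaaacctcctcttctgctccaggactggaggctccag
Mfsd2a: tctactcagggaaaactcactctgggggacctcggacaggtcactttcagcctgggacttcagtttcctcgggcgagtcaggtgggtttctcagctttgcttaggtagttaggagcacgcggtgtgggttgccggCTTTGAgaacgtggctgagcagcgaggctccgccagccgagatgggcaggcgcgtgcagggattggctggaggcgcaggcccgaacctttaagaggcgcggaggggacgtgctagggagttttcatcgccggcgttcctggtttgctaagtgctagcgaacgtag
Slco1c1: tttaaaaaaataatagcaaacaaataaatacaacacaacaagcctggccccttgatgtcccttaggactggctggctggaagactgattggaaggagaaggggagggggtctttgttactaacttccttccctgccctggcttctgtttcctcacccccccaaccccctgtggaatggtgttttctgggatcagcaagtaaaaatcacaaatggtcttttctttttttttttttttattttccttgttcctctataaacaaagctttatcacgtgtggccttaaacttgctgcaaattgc
Drd4: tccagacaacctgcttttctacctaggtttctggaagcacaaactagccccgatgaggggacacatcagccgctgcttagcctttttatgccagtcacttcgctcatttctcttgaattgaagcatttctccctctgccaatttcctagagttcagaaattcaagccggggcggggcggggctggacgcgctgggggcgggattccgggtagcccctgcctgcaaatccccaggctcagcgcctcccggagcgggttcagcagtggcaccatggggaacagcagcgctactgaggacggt
Col4a1: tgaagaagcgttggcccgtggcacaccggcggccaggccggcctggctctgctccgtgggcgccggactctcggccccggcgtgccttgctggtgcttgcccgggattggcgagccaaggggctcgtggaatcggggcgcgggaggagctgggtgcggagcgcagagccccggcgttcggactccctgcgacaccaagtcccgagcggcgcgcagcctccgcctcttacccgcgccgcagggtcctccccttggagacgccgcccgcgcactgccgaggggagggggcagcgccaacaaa
Mfsd2a held 1 CTTTGA, on its own strand from position 136 of the window, and the other 4 windows held neither motif on either strand. Over all 32851 windows, 16.0% held CTTTGA and 12.6% held ACAATG. Among class members with a window, CTTTGA was found in 4 of 10 restored, 1 of 5 overshooting, 3 of 9 staying apart and 0 of 8 between, against 1179 of 8788 other genes (13.4%). These are matches of letters only. In the annotation the starts of Col4a1 and Col4a2 lie head to head, with the 5′ end of Col4a1 at position 11312826 and that of Col4a2 at 11312805 of chromosome 8, so the window shown also covers the start of Col4a2.

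Among the 14 restored genes, 8 were lower and 6 higher in the knockout than in WT. For all 14 the intervals of stabilized knockout and WT overlapped, and for 12 those of stabilized knockout and knockout did not. Both counts follow in large part from the rule of the class, which uses the same values. Plvap (chr8:71497765-71511752), which forms the diaphragms of fenestrated endothelium and is low in vessels with a closed barrier, was at 2.22 FPKM in the stabilized knockout, 4.402 in the knockout, 1.33 in stabilized retinas and 1.72 in WT. The knockout stood alone above the other libraries, at 256% of WT against 129% in the stabilized knockout. Rgs5 (chr1:169655501-169695813), a regulator of G-protein signalling that marks pericytes, was at 21.7 FPKM in the stabilized knockout, 9.63 in the knockout, 25.02 in stabilized retinas and 17.6 in WT. The knockout was again the library apart, here below the rest. Slc39a8, a zinc and manganese importer, was at 1.56 FPKM in the stabilized knockout, 0.174 in the knockout, 1.35 in stabilized retinas and 0.977 in WT, so the stabilized knockout lay at 160% of WT with overlapping intervals. Its log2 ratio over WT was 0.48, near the limit of the class.

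Other restored genes have no vascular role in the lists used here. Gnat1, the α subunit of rod transducin, was at 213 FPKM in the stabilized knockout, 401 in the knockout, 215 in stabilized retinas and 239 in WT. The 25 rod genes, Gnat1 among them, had a median log2 ratio of 0.08 in the stabilized knockout over WT and 0.17 in the knockout over WT, and none was past 1.5-fold in the first ratio. Spp1, the secreted phosphoprotein osteopontin, was at 6.79 FPKM in the stabilized knockout, 1.28 in the knockout, 7.94 in stabilized retinas and 4.77 in WT. The knockout was low and the 3 other libraries lay above it with intervals apart from its own. Rec8, a meiotic cohesin subunit, was at 0.620 FPKM in the stabilized knockout, 2.70 in the knockout, 0.710 in stabilized retinas and 0.807 in WT. Bub1b, a spindle checkpoint kinase, was at 1.76 FPKM in the stabilized knockout, 3.08 in the knockout, 1.97 in stabilized retinas and 1.52 in WT. Both were high in the knockout alone. Col17a1, a transmembrane collagen, was at 4.67 FPKM in the stabilized knockout, 2.03 in the knockout, 5.61 in stabilized retinas and 3.66 in WT, with the knockout low. Zfp534, AU021092, Tnfrsf8, Rmnd1, Gm11127 and 1810007I06Rik completed the class, with log2 ratios of stabilized knockout over WT between -0.44 for Zfp534 and 0.30 for Tnfrsf8. 1810007I06Rik was at 1.70 FPKM in the stabilized knockout and 1.95 FPKM in WT, but at 0.254 FPKM in stabilized retinas, near the 0.201 FPKM of the knockout.

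**Figure D2:**
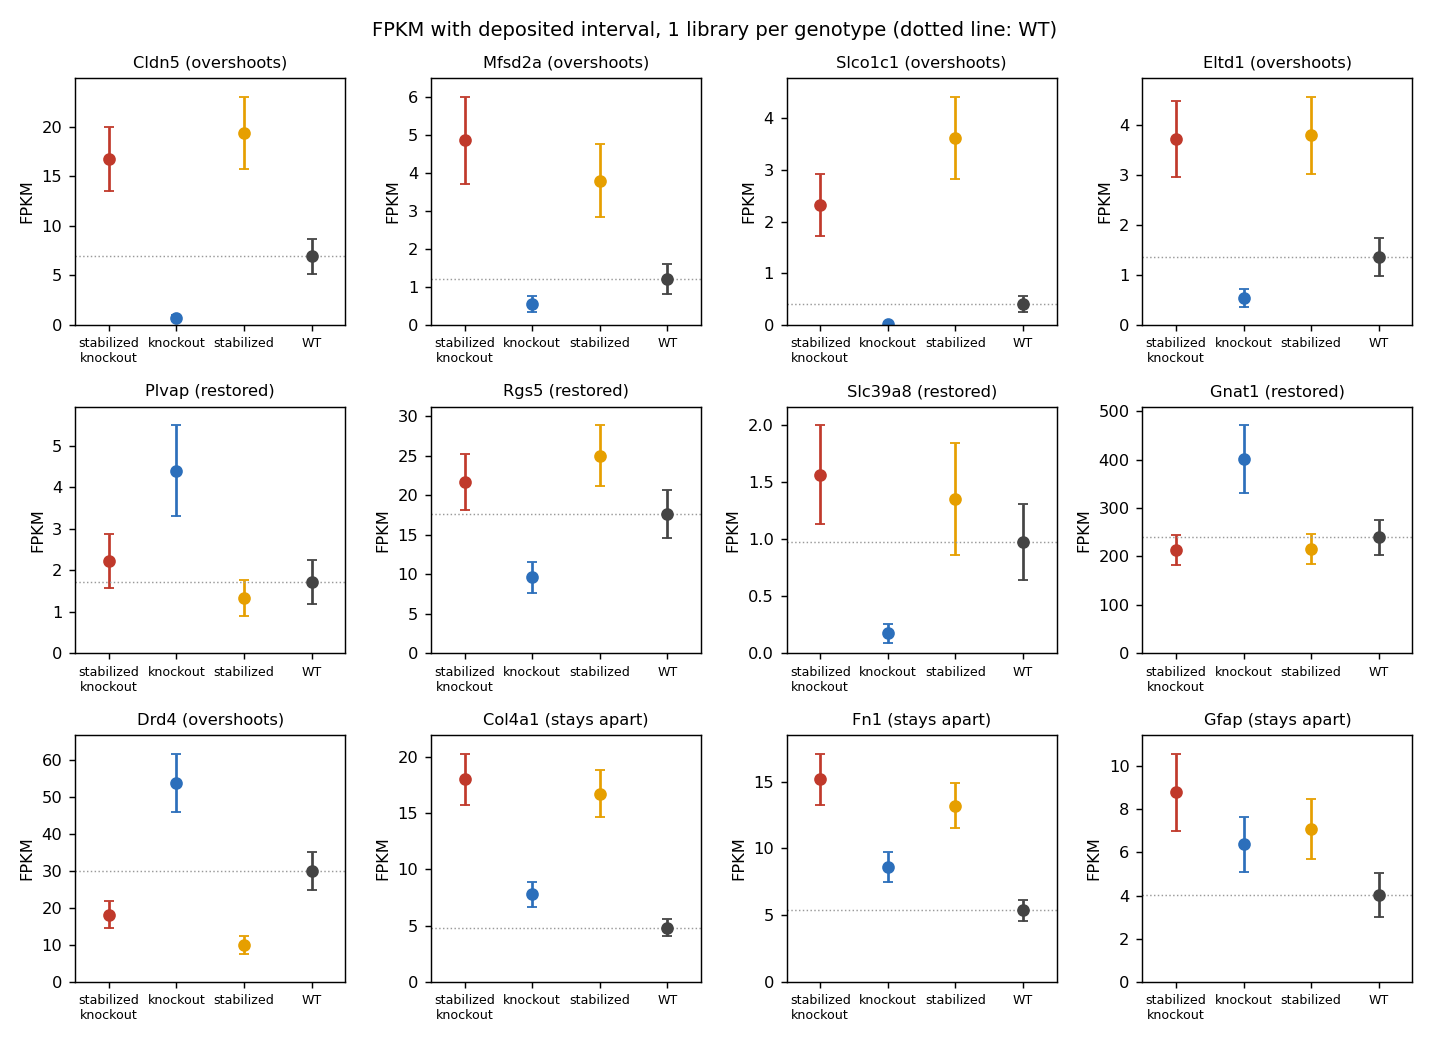
FPKM of 12 genes in the stabilized knockout, knockout, stabilized and WT libraries, 1 point per library with the deposited interval as the bar and the WT level as a dotted line. Cldn5, Mfsd2a, Slco1c1 and Eltd1 were above WT in both libraries with stabilized β-catenin and below WT in the knockout, Plvap, Rgs5, Slc39a8 and Gnat1 were apart in the knockout, and Col4a1, Fn1 and Gfap were lowest in WT.

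The 7 genes that overshot included 3 of the best known barrier genes. Of the 7, Slco1c1 and Serpina3h were below 1 FPKM in the knockout and WT and passed the minimum mean through the stabilized libraries. Mfsd2a and Eltd1 were below 1 FPKM in the knockout and not far above it in WT. The filter thus favours genes that are high in the stabilized libraries. With a minimum mean of 5 FPKM, 3 of the 7 remained. Cldn5 (chr16:18776847-18778262), the main claudin of endothelial tight junctions, was at 16.7 FPKM in the stabilized knockout (interval 13.5 to 20.0), 0.675 FPKM in the knockout, 19.4 FPKM in stabilized retinas and 6.91 FPKM in WT (interval 5.18 to 8.63). It stood at 242% of WT in the stabilized knockout and at 9.77% of WT in the knockout, and its log2 ratio over WT was 1.22. Mfsd2a (chr4:122946850-122961188), a lipid transporter of barrier endothelium that limits transcytosis, was at 4.86 FPKM in the stabilized knockout, 0.545 in the knockout, 3.80 in stabilized retinas and 1.20 in WT. Slco1c1 (chr6:141524368-141570177), a transporter of thyroid hormone, was at 2.32 FPKM in the stabilized knockout, 0.0206 in the knockout, 3.63 in stabilized retinas and 0.396 in WT. Both genes thus ranked below WT in the knockout and above WT, with intervals apart, in each library with stabilized β-catenin. Slc38a5, a glutamine transporter that is on chromosome X and outside the filter, ranked the same way, at 1.33 FPKM in the stabilized knockout, 0.172 in the knockout, 2.60 in stabilized retinas and 0.611 in WT. Abcb1a, the efflux pump P-glycoprotein, was below the minimum mean and had 1.02 FPKM in the stabilized knockout, 0.0665 in the knockout, 0.893 in stabilized retinas and 0.287 in WT.

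Eltd1, an adhesion G-protein-coupled receptor of endothelium, was at 3.72 FPKM in the stabilized knockout, 0.532 in the knockout, 3.79 in stabilized retinas and 1.36 in WT, the same order as Cldn5. Serpina3h, of a family of serine protease inhibitors with close paralogs, was at 1.97 FPKM in the stabilized knockout, 0.0278 in the knockout, 1.69 in stabilized retinas and 0.498 in WT, and its reads may have been divided with those paralogs. Hba-a2, an α-globin gene, was at 13.5 FPKM in the stabilized knockout, 0.00073 FPKM in the knockout, 17.1 FPKM in stabilized retinas and 3.79 FPKM in WT. It is nearly identical to Hba-a1, so the sum is the safer value, and that was 132 FPKM in the stabilized knockout, 51.5 in the knockout, 117 in stabilized retinas and 45.9 in WT. On that sum the knockout was not below WT, and the stabilized knockout was at 288% of WT. Drd4 (chr7:141292006-141296464), the dopamine D4 receptor that photoreceptors express with a daily rhythm, was the gene that overshot downwards. It was at 18.2 FPKM in the stabilized knockout, 53.9 in the knockout, 9.88 in stabilized retinas and 30.0 in WT, with log2 ratios over WT of -0.71 in the stabilized knockout and 0.83 in the knockout. Of the 14 genes that passed the filter in a list of Drd4 and retinal clock genes, Drd4 was the one past 1.5-fold in the stabilized knockout over WT, and the list median was -0.01. No source used here gives the time of day at which retinas were taken.

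Of the 22 genes that stayed apart, 13 were farther from WT in the stabilized knockout than in the knockout and 9 were nearer. Of the 13, 10 were higher than WT, and they included the main collagens of the vascular basement membrane. Col4a1 (chr8:11198423-11312826), a chain of type IV collagen, was at 18.02 FPKM in the stabilized knockout (interval 15.7 to 20.3), 7.77 FPKM in the knockout, 16.7 FPKM in stabilized retinas and 4.81 FPKM in WT (interval 4.06 to 5.55). Col4a2, its partner chain, was at 12.4 FPKM in the stabilized knockout, 5.98 in the knockout, 12.1 in stabilized retinas and 3.69 in WT. The pair kept nearly the same order and spacing, with log2 ratios of stabilized knockout over WT of 1.80 and 1.62 and of knockout over WT of 0.64 and 0.63. With a trend on length and GC content removed, the knockout no longer met the rule for these 2 genes, while their ratios of stabilized knockout over WT were 1.63 and 1.42. Fn1, fibronectin, was at 15.2 FPKM in the stabilized knockout, 8.60 in the knockout, 13.2 in stabilized retinas and 5.35 in WT. For these 3 matrix genes the intervals of the stabilized knockout lay above those of both the knockout and WT. Igfbp3, an insulin-like growth factor binding protein, was at 5.18 FPKM in the stabilized knockout, 4.00 in the knockout, 4.05 in stabilized retinas and 1.96 in WT, so WT alone was low.

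Further genes that stayed apart above WT had varied roles, and 2 of them, Gfap and A2m, were in a list of gliosis and retinal stress of which 14 members passed. Gfap, the intermediate filament of astrocytes that reactive Müller glia also make, was at 8.80 FPKM in the stabilized knockout (interval 7.01 to 10.6), 6.38 FPKM in the knockout, 7.10 FPKM in stabilized retinas and 4.02 FPKM in WT (interval 2.98 to 5.05). A2m, a broad protease inhibitor, was at 1.85 FPKM in the stabilized knockout, 1.33 in the knockout, 1.23 in stabilized retinas and 0.654 in WT. Both were lowest in WT and highest in the stabilized knockout. Hmox1, the heme-degrading enzyme heme oxygenase 1, was at 9.52 FPKM in the stabilized knockout, 4.67 in the knockout, 4.14 in stabilized retinas and 2.51 in WT, with the stabilized knockout apart from all others by its interval. Igf2, an insulin-like growth factor, was at 33.0 FPKM in the stabilized knockout, 24.6 in the knockout, 21.4 in stabilized retinas and 14.5 in WT. Thbs1, the matrix protein thrombospondin 1, was at 2.80 FPKM in the stabilized knockout, 2.89 in the knockout, 2.77 in stabilized retinas and 1.64 in WT, which again left WT alone at the low end. Emp1, an epithelial membrane protein, differed in order, with 2.16 FPKM in the stabilized knockout and 2.28 in the knockout, against 0.677 in stabilized retinas and 1.19 in WT. Hbb-b2, a β-globin gene, was at 15.4 FPKM in the stabilized knockout, 11.96 in the knockout, 14.7 in stabilized retinas and 2.93 in WT. It shares its sequence closely with other β-globin genes. The sum of Hbb-b1, Hbb-b2 and Beta-s was 113 FPKM in the stabilized knockout, 58.9 in the knockout, 112 in stabilized retinas and 63.9 in WT, and on it the knockout was not above WT.

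Another 9 genes that stayed apart were lower than WT. Ipw, a noncoding RNA of an imprinted region, was at 21.7 FPKM in the stabilized knockout, 22.4 in the knockout, 34.9 in stabilized retinas and 60.3 in WT, so no library came near WT. Lrrc17, a secreted leucine-rich repeat protein, was at 0.218 FPKM in the stabilized knockout, 1.23 in the knockout, 1.28 in stabilized retinas and 2.45 in WT. The stabilized knockout had the lowest value of Lrrc17, below the knockout with intervals apart. Several others were pseudogenes, repeats or predicted genes whose counting is uncertain: Pisd-ps1, Rn4.5s, Gm4792, Gm8615 and 1810035I16Rik among the lower ones, and Atp6v0c-ps2 and Gm13152 among the higher ones. Atp6v0c-ps2 in the stabilized knockout, 143 FPKM, had an interval of 0 to 295.

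The 13 genes between had log2 ratios of knockout over WT of -0.86 to 0.72. Their log2 ratio of stabilized knockout over WT ran from -0.46 for 2810002D19Rik to 0.57 for Hspa1a, a stress-induced chaperone. Slc24a1, the exchanger of rod outer segments, was at 29.8 FPKM in the stabilized knockout, 44.4 in the knockout, 22.9 in stabilized retinas and 29.0 in WT, so the stabilized knockout was at 103% of WT but less than 1.5-fold from the knockout. Cds1, which makes a phospholipid precursor, was at 8.81 FPKM in the stabilized knockout, 12.9 in the knockout, 7.33 in stabilized retinas and 7.88 in WT. Aqp1, a water channel, was at 2.97 FPKM in the stabilized knockout, 4.29 in the knockout, 1.84 in stabilized retinas and 2.55 in WT. For these 3 the knockout was the highest library. Hk2, a hexokinase, was at 5.10 FPKM in the stabilized knockout and 5.75 in the knockout, against 4.16 in stabilized retinas and 3.497 in WT. Trf, transferrin, was at 9.26 FPKM in the stabilized knockout, 9.76 in the knockout, 9.83 in stabilized retinas and 6.26 in WT. Hk2, Trf and Hddc3 had intervals of stabilized knockout and WT that did not overlap, although their ratio was under 1.5-fold. Irx2, Plac9, H19 and Pisd-ps2 were also in this class.

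A wider group of vascular genes was higher in the stabilized knockout than in WT. In a list of 34 pan-endothelial genes, 20 passed the filter and 13 of these were at least 1.5-fold higher (against 1.26% of all genes), 11 with intervals apart, and none was at least 1.5-fold lower. Some of the higher members passed the minimum mean through the stabilized libraries, so the filter adds to this count. Among them Tie1, an endothelial receptor, was at 0.643 FPKM in the knockout and 0.864 in WT. The list median was 0.82 for stabilized knockout over WT, against 0.01 for all genes, and 0.02 for knockout over WT. With a minimum mean of 5 FPKM the list median for stabilized knockout over WT was 0.26. In the knockout, Eltd1, below WT, and Cdh5, above it, were the 2 of the 20 with intervals apart from WT. Pecam1, the adhesion molecule CD31, was at 4.08 FPKM in the stabilized knockout, 2.02 in the knockout, 4.12 in stabilized retinas and 1.93 in WT. Cdh5, VE-cadherin of adherens junctions, was at 2.98 FPKM in the stabilized knockout, 1.36 in the knockout, 2.79 in stabilized retinas and 0.754 in WT. Cd93, a lectin-like receptor, was at 5.44 FPKM in the stabilized knockout, 1.29 in the knockout, 4.44 in stabilized retinas and 1.49 in WT. The co-receptor Eng, which binds TGF-β family ligands, was at 3.76 FPKM in the stabilized knockout, 1.46 in the knockout, 3.71 in stabilized retinas and 1.11 in WT. Both stabilized libraries lay above both others for each of the 4. The other 7 of the 20 were within 1.5-fold. Kdr, the VEGF receptor 2 that retinal neurons also express, was at 45.7 FPKM in the stabilized knockout, 39.9 in the knockout, 47.7 in stabilized retinas and 39.0 in WT. Emcn, a sialomucin of endothelium, was at 1.41 FPKM in the stabilized knockout, 1.85 in the knockout, 1.21 in stabilized retinas and 1.69 in WT. The 14 members below the minimum mean summed to 10.6 FPKM in the stabilized knockout, 3.73 in the knockout, 10.6 in stabilized retinas and 5.49 in WT. Above WT in the stabilized knockout were 6545 of the 12470 genes that passed and 12 of these 14. Sox17, an endothelial transcription factor, was among them at 0.832 FPKM in the stabilized knockout, 0.126 in the knockout, 0.711 in stabilized retinas and 0.399 in WT.

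All 14 genes of the vascular basement membrane list passed the filter, and 11 were at least 1.5-fold higher in the stabilized knockout than in WT (against 1.26% of all genes), all with intervals apart. Their median log2 ratio was 1.06 for stabilized knockout over WT and 0.16 for knockout over WT. Some members, among them Lama4 and Nid2, were below 1 FPKM in the knockout and WT and passed the minimum mean through the stabilized libraries. Nid2 was at 1.71 FPKM in the stabilized knockout, 0.667 in the knockout, 1.96 in stabilized retinas and 0.552 in WT. Besides Col4a1 and Col4a2, Nid1, a nidogen that links laminin to collagen, was at 3.83 FPKM in the stabilized knockout, 1.13 in the knockout, 4.402 in stabilized retinas and 1.05 in WT. Lama4, the endothelial laminin α chain, was at 2.18 FPKM in the stabilized knockout, 0.677 in the knockout, 2.14 in stabilized retinas and 0.634 in WT. Lamc1, a laminin γ chain, was at 7.14 FPKM in the stabilized knockout, 4.35 in the knockout, 6.97 in stabilized retinas and 3.68 in WT. Thus most of the list had a knockout near WT and both stabilized libraries above it. Sparc, Agrn and Lama5 were within 1.5-fold, with log2 ratios of 0.36, 0.31 and 0.28.

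Pericyte and smooth muscle genes passed the filter in 10 of 20 cases, and 5 were at least 1.5-fold higher (against 1.26% of all genes). Of the higher genes, Acta2, Abcc9 and Notch3 were below 1 FPKM in the knockout and WT and passed through the stabilized libraries. Acta2, smooth muscle actin, had the highest ratio of the vascular lists, at 3.38 FPKM in the stabilized knockout, 0.756 in the knockout, 1.53 in stabilized retinas and 0.392 in WT. Its interval in the stabilized knockout lay above that of every other library. Notch3, a receptor of mural cells, was at 2.02 FPKM in the stabilized knockout, 0.994 in the knockout, 1.79 in stabilized retinas and 0.759 in WT. Pdgfrb, the receptor through which pericytes are recruited, was at 2.14 FPKM in the stabilized knockout, 1.26 in the knockout, 2.70 in stabilized retinas and 1.21 in WT, with the stabilized retinas highest. Tagln, another actin-binding smooth muscle gene, was at 2.02 FPKM in the stabilized knockout and 2.00 FPKM in WT. In the list of barrier junctions, 11 of 17 passed and 3 were higher (against 1.26% of all genes), Cldn5, Esam and Cgnl1. Esam, an adhesion molecule of endothelial junctions, was at 6.49 FPKM in the stabilized knockout, 3.39 in the knockout, 5.48 in stabilized retinas and 3.95 in WT. Cgnl1, the junction protein paracingulin, was at 5.65 FPKM in the stabilized knockout, 3.57 in the knockout, 4.72 in stabilized retinas and 3.43 in WT. In both the stabilized libraries were above the other libraries. The scaffold Tjp1 was at 22.1 FPKM in the stabilized knockout and 18.9 FPKM in WT, with overlapping intervals. Cldn12, another claudin, was at 19.0 FPKM in the stabilized knockout and 23.0 FPKM in WT, also with overlapping intervals.

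Of the 22 barrier transporters, 17 passed the filter. At least 1.5-fold higher in the stabilized knockout than in WT were 5 of them (against 1.26% of all genes). Beside Mfsd2a and Slco1c1 these were Slc7a1, Slc40a1 and Slco2b1. Slc7a1, a cationic amino acid transporter, was at 6.03 FPKM in the stabilized knockout, 2.63 in the knockout, 6.28 in stabilized retinas and 3.18 in WT. Slc40a1, the iron exporter ferroportin, was at 2.58 FPKM in the stabilized knockout, 1.13 in the knockout, 2.38 in stabilized retinas and 1.39 in WT. Slco2b1, an organic anion transporter, was at 1.44 FPKM in the stabilized knockout, 0.454 in the knockout, 1.42 in stabilized retinas and 0.693 in WT. Each of the 3 was higher in both stabilized libraries than in the knockout and WT. Slc2a1, the glucose transporter that many retinal cells share, was at 94.5 FPKM in the stabilized knockout, 92.6 in the knockout, 77.1 in stabilized retinas and 79.9 in WT. Among genes of fenestrae, caveolae and tip cells, 14 of 17 passed and 4 were higher (against 1.26% of all genes). Pglyrp1, a peptidoglycan recognition protein, was at 2.96 FPKM in the stabilized knockout, 0.234 in the knockout, 1.72 in stabilized retinas and 0.426 in WT. Prnd, a prion-like protein of developing brain vessels, was at 3.57 FPKM in the stabilized knockout, 0.656 in the knockout, 3.91 in stabilized retinas and 1.01 in WT. Igfbp3 and Pdgfb were the others. Cav1, the coat protein of caveolae, was at 12.9 FPKM in the stabilized knockout and 17.7 FPKM in WT, with overlapping intervals. Arterial, venous and Notch genes had a median of 0.07 over 13 of 18, with 2 higher (against 1.26% of all genes). Gja4, an arterial connexin, was at 1.87 FPKM in the stabilized knockout and 0.668 FPKM in WT. Aplnr, the apelin receptor found on veins, was at 3.54 FPKM in the stabilized knockout and 1.56 FPKM in WT. In the BMP and TGF-β list 12 of 18 passed, with Tgfbr2, a TGF-β receptor, at 1.79 FPKM in the stabilized knockout and 0.918 in WT. Id1, an inhibitor of helix-loop-helix factors, was at 17.1 FPKM in the stabilized knockout and 26.6 FPKM in WT, the one lower gene of the list. Of the higher genes here, Slco1c1, Slco2b1, Pglyrp1, Gja4 and Tgfbr2 were below 1 FPKM in the knockout and WT. These passed the minimum mean through the stabilized libraries.

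**Figure D3:**
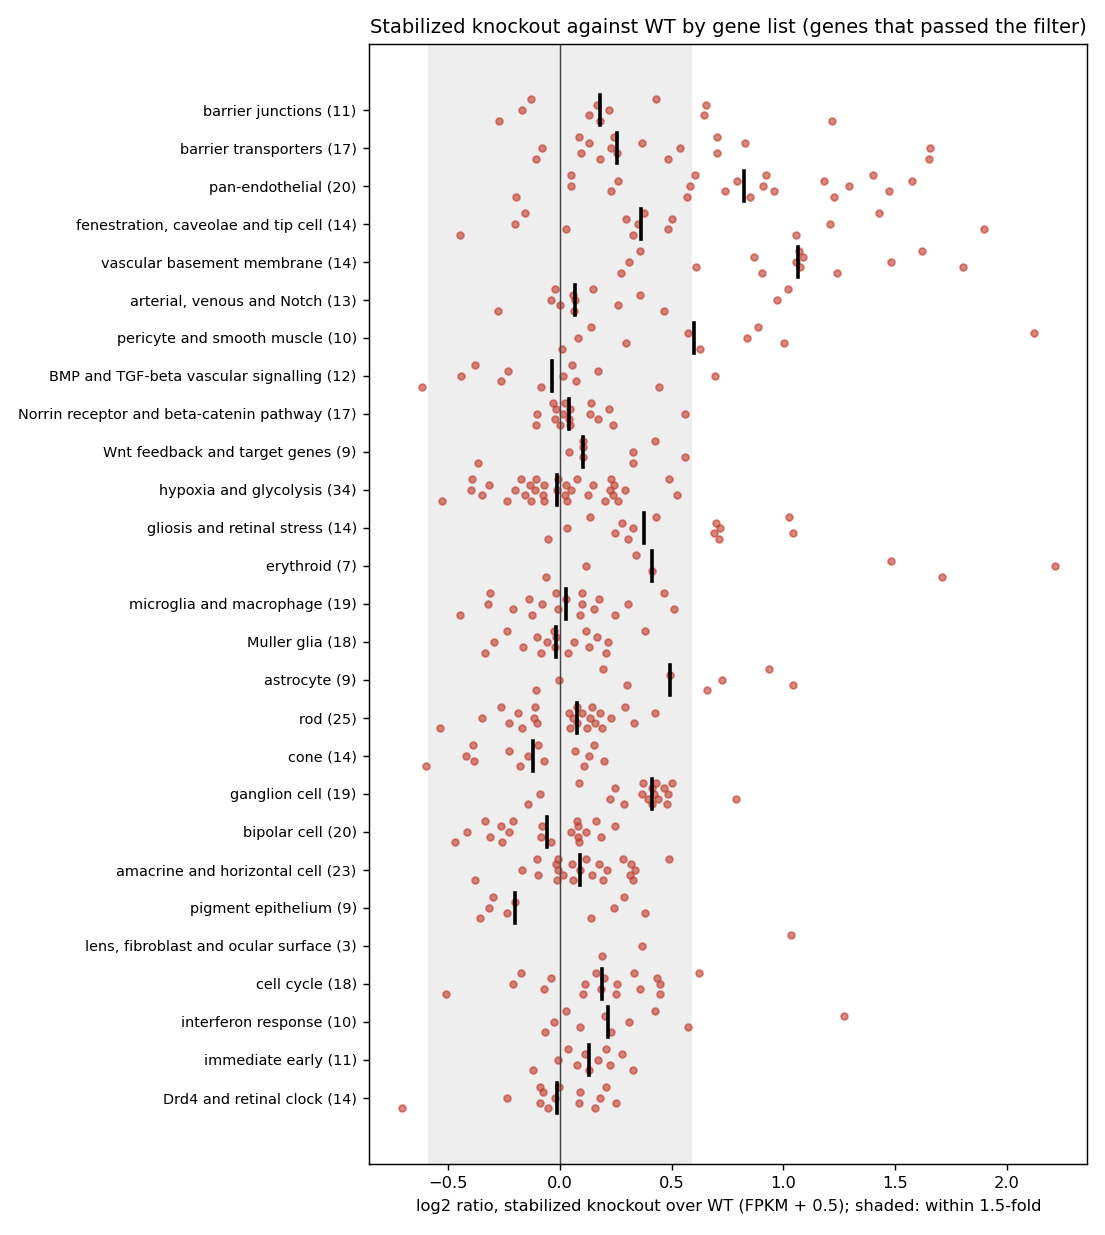
Log2 ratio of stabilized knockout over WT for the genes of 27 lists, 1 point per gene that passed the filter (their number in parentheses), with the list median as a black bar where at least 4 genes passed and the range within 1.5-fold shaded. The pan-endothelial, basement membrane and pericyte lists have medians of 0.82, 1.06 and 0.60, and the rod, bipolar and Müller glia lists medians of 0.08, -0.06 and -0.02.

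Globin RNA moved with these vascular lists. The 7 erythroid genes that passed summed to 227 FPKM in the stabilized knockout, 124 in the knockout, 208 in stabilized retinas and 121 in WT. At least 1.5-fold higher than WT in the stabilized knockout were 3 of 7 (against 1.26% of all genes). All 3 were globins with near-identical copies, so their single values are uncertain. Summed over copies, α-globin was at 288% of WT and β-globin at 177% of WT in the stabilized knockout. The other 4, Hbb-b1, Slc25a37, Fech and Bpgm, were within 1.5-fold, and 3 members below the minimum mean summed to 0.388 FPKM in the stabilized knockout and 0.312 FPKM in WT. The part of blood in the vascular values was not tested. The 20 pan-endothelial genes summed to 120 FPKM in the stabilized knockout, 78.2 in the knockout, 118 in stabilized retinas and 79.5 in WT. Per FPKM of that sum, Cldn5 was at 0.139 in the stabilized knockout, 0.00863 in the knockout, 0.165 in stabilized retinas and 0.0868 in WT. Kdr, which retinal neurons also express, weighs heavily in that sum. Per FPKM of the other members, Kdr was at 0.614 in the stabilized knockout and 0.963 in WT. Its log2 ratio of stabilized knockout over WT was 0.23, below the list median of 0.82. Less the pan-endothelial median of 0.82, which was 0.26 with a minimum mean of 5 FPKM, a subtraction chosen after the data were seen, the log2 ratio of stabilized knockout over WT was 0.40 for Cldn5, 0.83 for both Mfsd2a and Slco1c1, 0.98 for Col4a1 and 1.298 for Acta2. On the same scale Plvap and Rgs5 were each at -0.53. Gene length and GC content moved with the ratio as well, with Spearman correlations over 12317 genes of 0.19 with length and 0.34 with GC content, given as descriptions. With GC content the correlation was also 0.25 for knockout over WT and 0.34 for stabilized over WT. Between libraries other than WT it was 0.17 for stabilized knockout over knockout, 0.18 for stabilized over knockout and -0.06 for stabilized knockout over stabilized. The basement membrane list had a median GC content of 56.9% of its transcripts against 49.8% over all genes, and its median ratio was 0.89 once a trend on length and GC content was removed. The pan-endothelial median was 0.86 after the same removal.

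Of 19 genes of the Norrin receptor and the β-catenin pathway, 17 passed the filter and none of these was past 1.5-fold in the stabilized knockout over WT. The other members were Ndp, on chromosome X and at 29.1% of WT, and Lef1, below the minimum mean. Fzd4, the receptor, was at 2.09 FPKM in the stabilized knockout, 1.99 in the knockout, 1.89 in stabilized retinas and 2.15 in WT. Ctnnb1, which codes for β-catenin, was at 161 FPKM in the stabilized knockout, 138 in the knockout, 156 in stabilized retinas and 144 in WT. Of 20 Wnt feedback and target genes, 9 passed and none of these was past 1.5-fold. Over all genes 1.26% were that much higher and 0.465% lower, so finding none in these 2 lists is near that share. The 11 Wnt list members below the minimum mean summed to 3.88 FPKM in the stabilized knockout, 2.14 in the knockout, 3.13 in stabilized retinas and 2.50 in WT. Above WT in the stabilized knockout were 6545 of the 12470 genes that passed and 8 of these 11. Among them Lef1, a TCF/LEF factor, was at 0.753 FPKM in the stabilized knockout, 0.294 in the knockout, 0.527 in stabilized retinas and 0.396 in WT. Notum, a secreted inhibitor of Wnt ligands, was at 0.360 FPKM in the stabilized knockout, 0.105 in the knockout, 0.379 in stabilized retinas and 0.0952 in WT. Axin2, a feedback inhibitor, was at 5.80 FPKM in the stabilized knockout, 5.30 in the knockout, 5.35 in stabilized retinas and 5.37 in WT. Tcf7, a TCF/LEF factor that is on both lists, had the highest ratio of the genes that passed in either, with 1.28 FPKM in the stabilized knockout, 0.591 in the knockout, 1.54 in stabilized retinas and 0.707 in WT, and overlapping intervals of stabilized knockout and WT. Tcf7 was at 181% of WT in the stabilized knockout, and with the pseudocount of 0.5 its log2 ratio was 0.56. It was thus under 1.5-fold only through the pseudocount. Its log2 ratio of stabilized over knockout was 0.90, with intervals apart.

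None of the 25 rod, 20 bipolar, 23 amacrine and horizontal or 18 Müller glia genes that passed was at least 1.5-fold from WT. Over all genes 1.26% were that much higher and 0.465% lower, so finding none in lists of this size is near that share. Of 14 cone genes, Pde6h, a subunit of the cone phosphodiesterase, was past 1.5-fold, with 99.5 FPKM in the stabilized knockout, 158 in the knockout, 114 in stabilized retinas and 151 in WT. Opn1mw, the M cone opsin on chromosome X and outside the filter, was at 9.22 FPKM in the stabilized knockout and 18.3 in the knockout, against 6.56 in stabilized retinas and 20.1 in WT. The 19 ganglion cell genes that passed had a median of 0.41. Above WT were 17 of them, against 6545 of all 12470 genes. Nefm, a neurofilament, was the only gene of the list past 1.5-fold. It was at 44.2 FPKM in the stabilized knockout, 36.6 in the knockout, 42.8 in stabilized retinas and 25.4 in WT. The ganglion cell median for knockout over WT was 0.22, on the same side. Thy1, a surface glycoprotein, was at 58.1 FPKM in the stabilized knockout, 50.8 in the knockout, 52.6 in stabilized retinas and 40.8 in WT, so WT was lowest here too. Of 9 astrocyte genes, 4 were at least 1.5-fold higher (against 1.26% of all genes), with a median of 0.49. Pdgfra, the receptor by which retinal astrocytes respond to PDGF, was at 10.2 FPKM in the stabilized knockout, 5.10 in the knockout, 8.91 in stabilized retinas and 5.06 in WT. Igfbp2, a binding protein of insulin-like growth factors, was at 20.4 FPKM in the stabilized knockout, 15.4 in the knockout, 16.2 in stabilized retinas and 12.1 in WT. Among 14 genes of gliosis and retinal stress, 6 were at least 1.5-fold higher (against 1.26% of all genes), 3 of them with intervals apart. Beside Gfap and A2m, Nes, nestin, was at 3.59 FPKM in the stabilized knockout, 2.20 in the knockout, 3.22 in stabilized retinas and 2.04 in WT.

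Genes of hypoxia and of immune cells did not stand apart as lists. Of 37 hypoxia and glycolysis genes 34 passed, none was past 1.5-fold, and the median was -0.01. Over all genes 1.26% were that much higher and 0.465% lower, so finding none in a list of such size is near that share. Vegfa was at 90.8 FPKM in the stabilized knockout, 116 in the knockout, 87.0 in stabilized retinas and 107 in WT, so the stabilized libraries were lower than the others. None of 19 microglia and macrophage genes was past 1.5-fold, with a median of 0.03. Of 10 interferon response genes, Ifitm3, a membrane protein that restricts virus entry and that endothelial cells also make, was at 5.56 FPKM in the stabilized knockout, 1.82 in the knockout, 4.19 in stabilized retinas and 2.01 in WT. Of 18 cell cycle genes, Mcm6, a helicase subunit of replication, was at 4.50 FPKM in the stabilized knockout, 2.76 in the knockout, 4.67 in stabilized retinas and 2.75 in WT, and the list median was 0.19. None of 11 immediate early genes and none of 9 pigment epithelium genes was past 1.5-fold, with medians of 0.13 and -0.20. Of 19 lens, fibroblast and ocular surface genes 3 passed, and Mgp, a matrix protein, was at 16.9 FPKM in the stabilized knockout, 10.5 in the knockout, 9.51 in stabilized retinas and 8.00 in WT.

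The stabilized and knockout libraries, which the ratio of stabilized knockout over WT does not use, hold the same β-catenin contrast with the Ndp contrast, and sex, reversed. In this pair 168 of all genes were at least 1.5-fold higher in stabilized retinas (1.35%) and 139 lower (1.11%). The median over all genes was 0.003, so they split nearly evenly around 0. Of the 121 genes higher in the stabilized knockout than in WT with intervals apart, 109 were also above 0 and 70 at least 1.5-fold higher (57.9%) in stabilized over knockout, and 1, Emp1, was at least 1.5-fold lower. Their median was 0.86 in the first pair and 0.63 in the second. The minimum mean used all 4 libraries, however, so genes low in WT and the knockout, such as Slco1c1 and Acta2, passed through both stabilized libraries. For such genes a ratio above 0 in the second pair was in part selected by the filter. A total of 66 genes were higher with intervals apart in both pairs. That is 54.5% of the 121 and 51.6% of the 128 genes, of all 12470, called so in the second pair. Of the 26 lower genes, 16 were below 0, not far from the split of all genes. At least 1.5-fold lower were 8 (30.8%), while 5 were at least 1.5-fold higher (19.2%), among them Ipw. The higher genes thus recurred across the pairs in larger part than the lower ones, a contrast that was not tested.

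**Figure D4:**
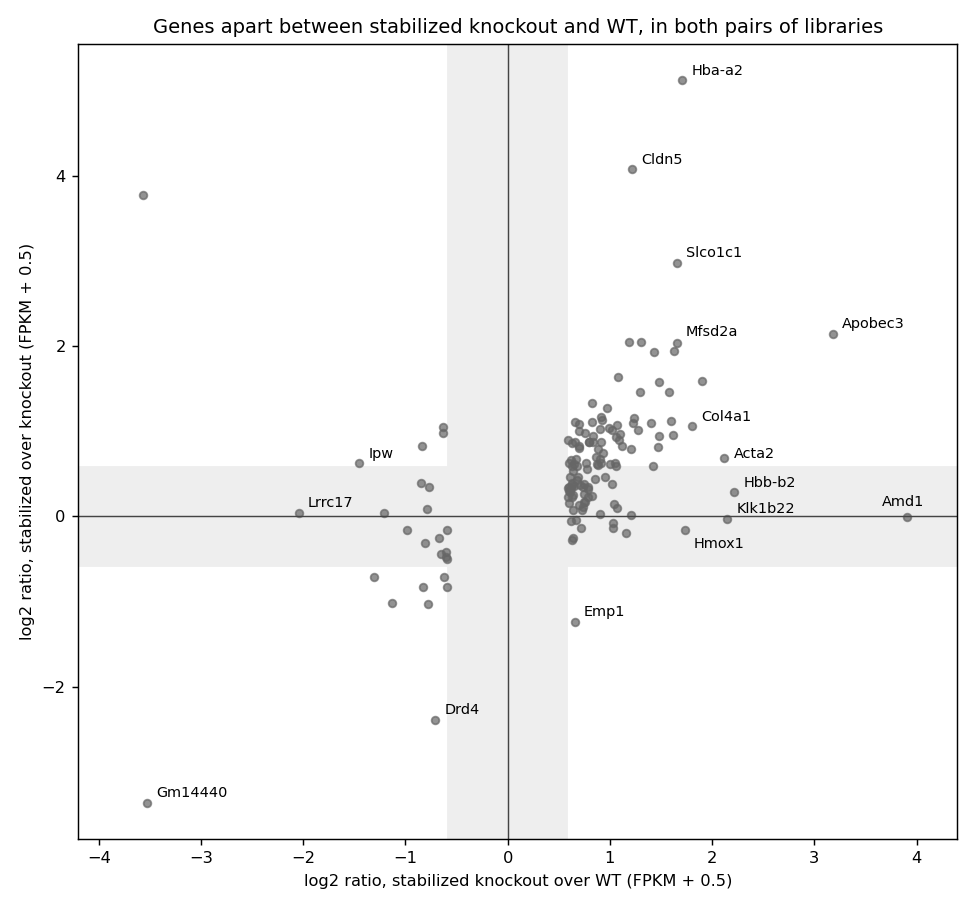
Log2 ratio of stabilized knockout over WT (x) and of stabilized over knockout (y) for the 147 genes at least 1.5-fold apart with intervals apart in the first pair, 1 point per gene, with the range within 1.5-fold shaded. The pairs share no library, but the minimum mean of the filter used all 4 libraries. Cldn5, Slco1c1, Mfsd2a and Apobec3 lie high in both, and Drd4 lies low in both.

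Some of the highest and lowest ratios lay outside the lists. Apobec3 (chr15:79891659-79915906), a cytidine deaminase that restricts retroviruses, was at 9.68 FPKM in the stabilized knockout, 0.515 in the knockout, 4.01 in stabilized retinas and 0.623 in WT. It lies near Pdgfb, whose promoter drives the Cre transgene. Within 200000 bases of Pdgfb, Pdgfb itself was at 2.92 FPKM in the stabilized knockout, 1.11 in the knockout, 2.57 in stabilized retinas and 1.14 in WT. Cbx7, a Polycomb subunit, was at 18.8 FPKM in the stabilized knockout, 8.76 in the knockout, 19.5 in stabilized retinas and 11.7 in WT. All 3 genes were higher in both stabilized libraries, which carry the transgene, than in the knockout and WT. The neighbours Cbx6, Rpl3, Syngr1, Tab1 and Mgat3 were close to WT, with log2 ratios between 0.01 and 0.15. Whether transcripts or flanking sequence of the transgene add to these values was not tested. Nptxr was at 12.5 FPKM in the stabilized knockout, 11.5 in the knockout, 12.4 in stabilized retinas and 7.24 in WT, with overlapping intervals.

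Amd1, an enzyme of polyamine synthesis, had the highest ratio among genes with intervals apart, 7.10 FPKM in the stabilized knockout against 0.00758 FPKM in WT, but it shares its locus with Amd2, and the pair summed to 26.4 FPKM in the stabilized knockout, 28.9 in the knockout, 26.02 in stabilized retinas and 32.4 in WT. The sum did not show the difference. Klk1b22, one of a cluster of similar kallikrein genes, was at 4.70 FPKM in the stabilized knockout, 0.189 in the knockout, 0.176 in stabilized retinas and 0.674 in WT, and so was high in the stabilized knockout alone. Gdpd3, a lysophospholipase, was at 5.13 FPKM in the stabilized knockout, 1.06 in the knockout, 5.52 in stabilized retinas and 1.32 in WT. Among the lowest, Kcnj14, an inward-rectifier potassium channel, was at 1.85 FPKM in the stabilized knockout, 5.83 in the knockout, 3.37 in stabilized retinas and 5.33 in WT. Spc25, a kinetochore protein, was at 12.1 FPKM in the stabilized knockout, 23.0 in the knockout, 11.004 in stabilized retinas and 21.1 in WT. Dip2c was at 5.34 FPKM in the stabilized knockout, 10.1 in the knockout, 5.49 in stabilized retinas and 9.84 in WT. In both genes the stabilized libraries lay below the others with intervals apart. Pla2g4b, a phospholipase, was at 1.93 FPKM in the stabilized knockout, 4.07 in the knockout, 3.19 in stabilized retinas and 3.78 in WT. The rule for the lowest 12 also named Duxbl, with 0.770 FPKM in the stabilized knockout and 2.44 FPKM in WT, and Zfp658, with 4.49 FPKM in the stabilized knockout and 7.99 FPKM in WT. Kbtbd8 was the last, with 1.69 FPKM in the stabilized knockout and 3.00 FPKM in WT. Gm14440, a predicted gene outside that rule that was chosen after its values were seen, was at 0.0425 FPKM in the stabilized knockout and 0.0115 in stabilized retinas, against 4.77 in the knockout and 5.77 in WT.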

How the data were processed

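RNA of whole retinas at postnatal day 10 was measured in 4 pooled libraries made by the TruSeq kit for RNA, per the labels' protocols. The table deposited by the authors gives each gene's FPKM in each library with interval bounds and a status. The submitters' processing notes name TopHat, Cuffdiff and mm10, while versions, annotation, strand and read totals were not given in the sources used here. Deposited FPKM are relative values, so abundant RNA that changes moves the rest. No source used here says how fragments of near-identical or overlapping genes were split. Of all genes, 4285 have a deposited locus that another gene shares, 2410 of them among the genes compared, and these are uncertain. Each column was matched to a library by its number, which a single sample description carries. All per-sample columns belonged to the series.

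Of 23278 genes, 145 had a status other than OK in at least 1 library and 13150 passed the status and the minimum mean of 1 FPKM. Removing 245 short RNA genes and 435 genes of chromosomes X and Y left 12470. The minimum mean was taken over all 4 libraries, so a gene low in WT could pass through the libraries where it was high. Log2 ratios used a pseudocount of 0.5, which understates differences of low genes, and intervals were called apart when they did not overlap. No test was made, since each genotype has 1 library. The genes, the 27 gene lists and the classes were chosen with earlier results of these data known. Named genes were a preset group, the 12 highest and 12 lowest ratios with intervals apart that were no provisional symbols, the 10 genes per class farthest from WT in the knockout, up to 4 genes per list and direction past 1.5-fold, the gene nearest each list median, and neighbours of Pdgfb. Further members of the classes and lists, and genes of X and Y, were named after their values were seen, and 3 genes of the classes are not reported here. Alternatives changed the pseudocount, the minimum mean, the fold, the scaling, the gene filters and the use of intervals. Removal of a trend on length and GC content and subtraction of the pan-endothelial median were chosen after seeing the data. Gene coordinates came from GENCODE M21, whose assembly is that of mm10, and promoter windows from RefSeq on GRCm38.p6. Software was Python 3.11.15 with pandas 2.3.3, numpy 2.4.6, matplotlib 3.10.9 and statsmodels 0.14.6.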

Additional observations from a re-analysis of the deposited data

How the results depend on the processing

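As reported, 157 genes were at least 1.5-fold higher and 58 lower in the stabilized knockout than in WT, and 14 were restored, 7 overshot, 22 stayed apart and 13 lay between. The lower count was 38 and the overshooting count 4 with a pseudocount of 1. With a minimum mean of 5 FPKM the counts were 57 higher, 26 lower, 4 restored, 3 overshooting, 14 staying apart and 7 between, and with no minimum 237 higher, 90 lower and 24 restored. At 2-fold they were 49, 13, 6, 2, 4 and 5 in the order of the first sentence. With intervals apart 26 were lower, with short RNA genes kept 135, and with the knockout counted whatever its intervals 29 were restored, 12 overshot, 36 stayed apart and 29 lay between. Without the trend on length and GC content, 14 stayed apart. In that setting Col4a1 and Col4a2 left the classes, although their ratios of stabilized knockout over WT were 1.63 and 1.42, and 3 of the others had no length. Spp1 then overshot at 0.62 and Thbs1 lay between at 0.54. Of the 14 restored genes, 13 kept their class with a pseudocount of 0.1, 11 with a pseudocount of 1 and 12 without the trend, and of the 7 overshooting genes 7, 4 and 7 did. Less the pan-endothelial median, 6 ratios changed sign: Cgnl1 to -0.18, Esam to -0.17, Slc40a1 to -0.12, Cd34 to -0.029, Pdgfrb to -0.20 and Tgfbr2 to -0.13. The pigment epithelium median became 0.040 with a minimum of 0.5 FPKM, and the cell cycle and interferon medians -0.070 and -0.027 with a minimum of 5 FPKM. The pan-endothelial median was 0.26 in that last setting, against 0.82 as reported. Of 69 named genes past 1.5-fold, 10 fell short under a setting, not counting the subtraction of the pan-endothelial median. Short with a pseudocount of 1 were Kbtbd8, Lcn2, Mcm6, Pdgfrb, Slc40a1 and Tgfbr2. Short without the trend were 1810035I16Rik, Cgnl1, Id1, Pdgfrb and Pisd-ps1. Less the pan-endothelial median, further named vascular genes fell short of 1.5-fold, among them Cldn5 at 0.40, Pecam1 at 0.088, Eltd1 at 0.36 and Lama4 at 0.42. Others, such as Mfsd2a at 0.83 and Col4a1 at 0.98, did not. The causes were not tested, beyond the smaller or larger gene sets of the filters. No paired analysis was possible because each genotype has 1 library. No library could be left out of the ratio for the same reason. Depth is unknown, and genes near 1 FPKM have wide intervals.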
